A study of Komagataella pastoris with 60 samples.

Results

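*PEP4* (Pipas_chr3_1087), *PRB1* (Pipas_chr1-1_0379) and *YPS1* (Pipas_chr4_0584) are the 3 genes described here, of the 5319 host genes listed for each library. They were named by gene ID, with earlier results of these data known, and all 3 had enough reads to be tested. The deposited files list genes by ID, and the 3 names came with the rule that chose the genes and were not tested against a sequence. Their mRNA was counted by RNA sequencing in *Pichia pastoris* GS115 (labelled *Komagataella pastoris*), a methylotrophic yeast used to secrete foreign proteins. The deletion strains were *rpl38*∆, *rpl9a*∆, *rps7*∆ and *rps25*∆, each without 1 ribosomal protein gene, and wt was the strain that had all of them. All 5 strains carried a single copy of a phytase gene (Phy) behind the methanol-induced AOX1 promoter, so that wt was also a producing strain. Cultures were fed methanol and sampled at 24, 48 and 72 h in 2 biological replicates. Cycloheximide, which holds ribosomes on the mRNA, was added, and each sample was divided for total mRNA and for RNC-mRNA, the mRNA bound in ribosome–nascent chain complexes. This gave 30 libraries of each assay. The question for these genes is how their mRNA, and the part of it bound to ribosomes, differed between each deletion strain and wt in the course of the methanol culture.

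In *Saccharomyces cerevisiae*, the product of *PEP4* is proteinase A, an aspartyl protease of the vacuole that is needed to activate the precursors of other vacuolar enzymes. One of these is proteinase B, the product of *PRB1*, a serine protease of the subtilisin family. Yps1 is a yapsin, an aspartyl protease held at the cell surface by a glycolipid anchor. Vacuolar and surface proteases can both cut secreted foreign proteins in long methanol cultures, and *P. pastoris* strains that lack such genes are used as production hosts.

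An mRNA library held between 2970406 and 15476958 reads of host genes, with a median of 6595444, and an RNC-mRNA library between 1508702 and 13532265, with a median of 4915156.5. Each deleted gene had a lower CPM in the 6 libraries of its own strain than in any of the 24 libraries of the other strains, in both assays, where CPM are the reads of a gene per 1000000 host gene reads of the library. One RNC-mRNA library, *rpl9a*∆ 72 h replicate 2, stood apart. Its higher correlation with the 2 mRNA libraries of its own strain and time, on log2 values centred on the assay, was −0.375, and that of the other RNC-mRNA libraries was at least 0.586. Of the *rpl9a*∆ results below, those whose call it changed are given with and without it. Levels are given as CPM. Tests were made with edgeR after TMM scaling, which sets the typical gene to no change. An edgeR adjusted p is a Benjamini-Hochberg value over all genes tested, and a gene passed where it was under 0.05. Values with library size alone differ from these. With it, the log2 fold change of a gene against wt moved from its value after TMM. The median move of all genes was −0.34 to 0.72 in the 12 mRNA comparisons and −0.19 to 1.13 in those of RNC-mRNA. Both highest values were those of *rps7*∆ at 48 h. There, the 10 genes with most reads took 6.18% of the host reads in mRNA, against 13.1% in wt, and 6.20% in RNC-mRNA, against 15.2% in wt. The 86 ribosomal protein genes took 1.30% of them in mRNA, against 2.85% in wt, and 3.20% in RNC-mRNA, against 7.73% in wt. The part of these genes in the results was not tested. Changes below are relative to the typical gene. Where scaling by library size turned a direction or ended a call, its value is given beside it. Where libraries are said to lie above or below wt, or to overlap with it, this describes CPM without TMM. How many of all genes separated from wt in this way was not counted, so it is given as a description only. A lower share of a gene in the RNA of a culture and less RNA of it per cell cannot be told apart in these data.

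*PEP4* had a median of 936 CPM in mRNA and 712 CPM in RNC-mRNA. The median of *YPS1* was 173 CPM in mRNA and 124 CPM in RNC-mRNA. The median of *PRB1* was 29.7 CPM in mRNA and 9.27 CPM in RNC-mRNA, and its values rested on 51 to 541 reads per mRNA library and 7 to 216 per RNC-mRNA library. Levels of different genes can be compared only per length. *PEP4* has a listed length of 1232 and *YPS1* of 1799, and the RPKM (reads per kilobase of listed length per 1000000 host gene reads) of *PEP4* exceeded that of *YPS1* in all 30 libraries of each assay. The RPKM of *PRB1* cannot be set beside them. It is listed in 2 entries and with a length of 311, and among the 451 genes with 2 or 3 entries 131 have a listed length under 50, which is the length of a piece and not of a gene.

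**Figure D1:**
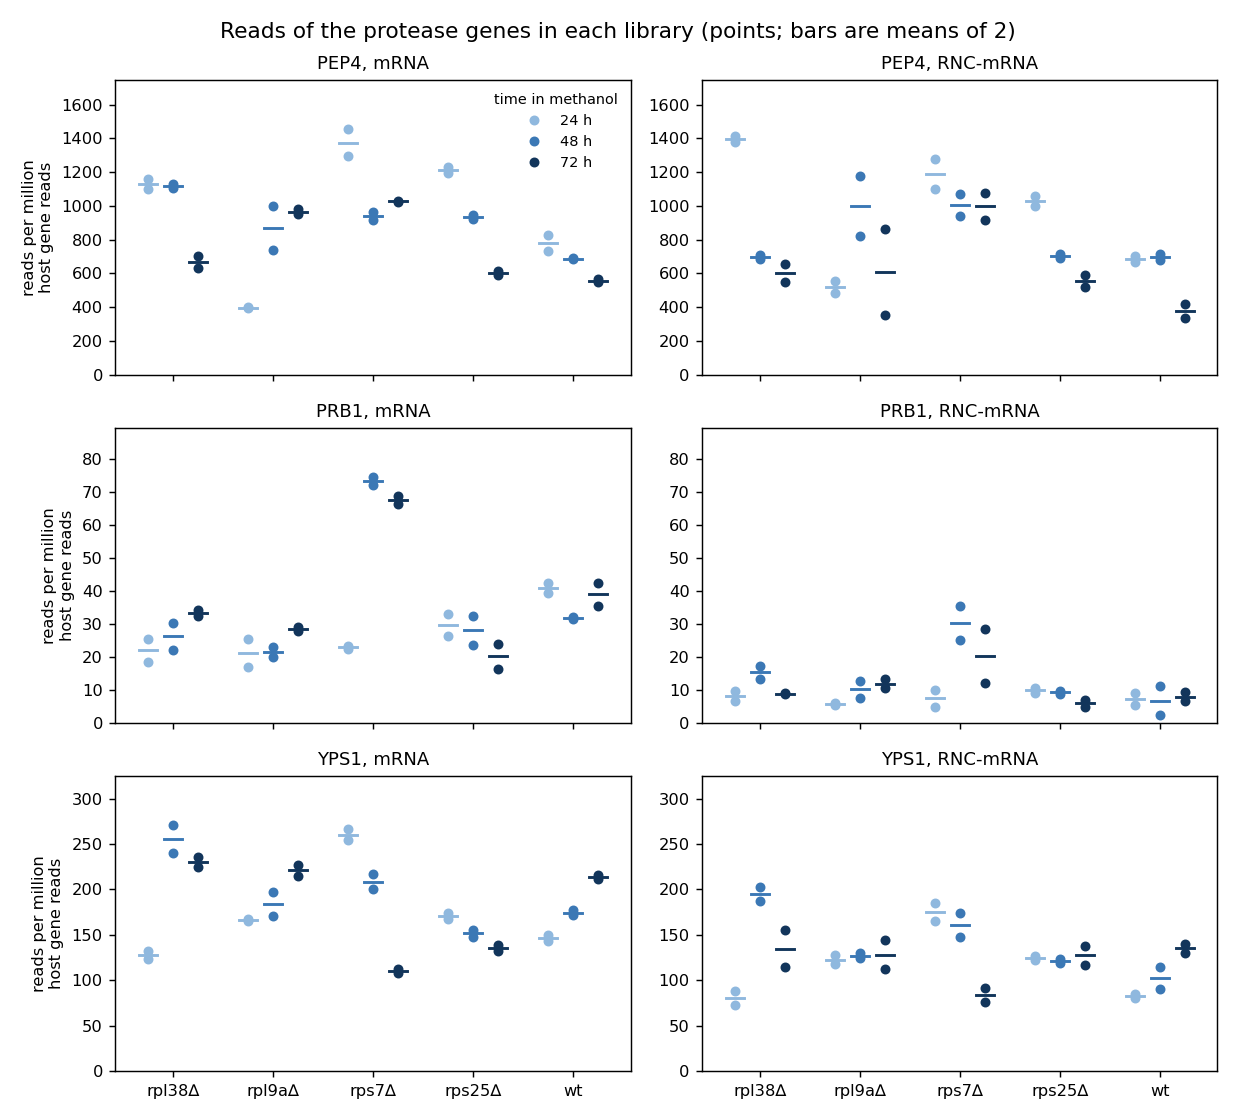
Reads per 1000000 host gene reads (CPM) of *PEP4*, *PRB1* and *YPS1* in each library, mRNA on the left and RNC-mRNA on the right. Points are libraries, short bars are means of 2, and shades are 24, 48 and 72 h. *PEP4* in mRNA lies between 393 and 1456 CPM, with *rpl9a*∆ lowest at 24 h, and *PRB1* in mRNA is highest in *rps7*∆ at 48 and 72 h.

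*PEP4* mRNA differed from wt in most comparisons and was mostly higher in the deletion strains. It passed in 10 of the 12 comparisons with wt, with 8 higher and 2 lower. The lower ones were *rpl9a*∆ at 24 h and *rps7*∆ at 48 h, of which the second was higher with library size alone. Such counts are read against those of all 5229 genes tested in mRNA. Of these genes, 49.0% at 24 h, 61.1% at 48 h and 64.5% at 72 h passed in *rpl38*∆. In *rpl9a*∆ 49.0%, 41.7% and 65.6% passed at these times. In *rps7*∆ it was 63.0%, 66.9% and 66.7%, and in *rps25*∆ 58.3%, 53.2% and 50.5%. Calls were thus common among all genes, and those of the 3 genes are given with their size and direction.

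In *rpl38*∆, *PEP4* mRNA was at 1157 and 1101 CPM at 24 h, 1105 and 1130.1 CPM at 48 h and 634 and 706 CPM at 72 h. In wt it was at 733 and 826 CPM at 24 h, 684 and 690.3 CPM at 48 h and 548 and 565 CPM at 72 h. The libraries of the deletion strain lay above those of wt at all 3 times. *PEP4* rose by 0.65 ± 0.10 on the log2 scale at 24 h (SE, edgeR adjusted p = 1.32e-05) and by 0.54 ± 0.10 at 48 h (edgeR adjusted p = 7.48e-05), and did not pass at 72 h (0.19 ± 0.10, edgeR adjusted p = 0.0968).

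In *rpl9a*∆, the course of *PEP4* was the opposite of that in wt. The libraries had 393 and 403 CPM at 24 h, 736 and 999 CPM at 48 h and 982 and 952 CPM at 72 h. They lay below wt at 24 h and above it at 48 and 72 h. The log2 fold change was −0.66 ± 0.10 at 24 h (edgeR adjusted p = 1.32e-05) and 0.82 ± 0.10 at 72 h (edgeR adjusted p = 3.39e-07). At 48 h it was 0.26 ± 0.10 (edgeR adjusted p = 0.0382). Here the 2 libraries of *rpl9a*∆ were far apart, and without replicate 2 the value was 0.10 (edgeR adjusted p = 0.363). It also missed the threshold without either wt 48 h library, either *rpl38*∆ 24 h library or *rps25*∆ 72 h replicate 2, with values of 0.25 to 0.27 (adjusted p up to 0.145).

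In *rps7*∆, *PEP4* had 1295 and 1456 CPM at 24 h, 918 and 963 CPM at 48 h and 1030.3 and 1023 CPM at 72 h, above wt at each time. At 24 h it rose by 0.57 ± 0.10 and at 72 h by 0.41 ± 0.10 (edgeR adjusted p = 3.45e-05 and 9.87e-04). At 48 h the 2 scalings gave opposite calls, with a log2 fold change of −0.26 ± 0.10 after TMM (edgeR adjusted p = 0.024) and of 0.46 with library size alone (adjusted p = 9.81e-04). The value after TMM also missed the threshold without either wt 48 h library or without *rps7*∆ 48 h replicate 1, at −0.27 to −0.23 (adjusted p 0.0667 to 0.114).

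In *rps25*∆, *PEP4* had 1230.2 and 1194 CPM at 24 h, 925 and 946 CPM at 48 h and 592 and 615 CPM at 72 h. The libraries lay above wt at each time, and the gap was narrowest at 72 h. The log2 fold change was 0.31 ± 0.10 at 24 h, 0.24 ± 0.10 at 48 h and 0.02 ± 0.10 at 72 h (edgeR adjusted p = 0.00905, 0.0439 and 0.874). The first call was lost without wt 24 h replicate 1 (0.24, adjusted p = 0.105) or *rps25*∆ 24 h replicate 1 (0.28, adjusted p = 0.0654). The second was lost without any 1 of 13 libraries, 7 of them of *rps25*∆ or wt, at 0.20 to 0.25 (adjusted p 0.0509 to 0.195).

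*PRB1* mRNA was lower than in wt in 3 strains and, in *rps7*∆, lower at 24 h and higher at 48 h. It passed in 7 of the 12 comparisons, with 6 lower and 1 higher, *rps7*∆ at 48 h. The highest libraries of the gene were the 4 of *rps7*∆ at 48 and 72 h.

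In *rpl38*∆, *PRB1* had 18.6 and 25.5 CPM at 24 h, 30.2 and 22.2 CPM at 48 h and 32.4 and 34.3 CPM at 72 h. In wt it was at 42.5 and 39.4 CPM at 24 h, 32.1 and 31.5 CPM at 48 h and 35.5 and 42.4 CPM at 72 h. All 6 *rpl38*∆ libraries lay below those of wt at their time, and the fold change was nearest to 0 at 72 h. The log2 fold change was −0.78 ± 0.20 at 24 h, −0.42 ± 0.20 at 48 h and −0.31 ± 0.19 at 72 h, of which the first passed (edgeR adjusted p = 0.00231, 0.0767 and 0.172). Without *rpl38*∆ 24 h replicate 1 the first was −0.56 (adjusted p = 0.0651), and without *rpl38*∆ 48 h replicate 1 the second was −0.68 and passed (adjusted p = 0.0392).

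In *rpl9a*∆, *PRB1* had 16.8 and 25.3 CPM at 24 h, 20.0 and 23.1 CPM at 48 h and 29.1 and 27.7 CPM at 72 h. These too were all below wt at the same time. The log2 fold change was −0.70 ± 0.20 at 24 h, −0.63 ± 0.19 at 48 h and −0.43 ± 0.19 at 72 h (edgeR adjusted p = 0.00559, 0.0118 and 0.0511). The first rested in large part on 1 library, as it was −0.37 without *rpl9a*∆ 24 h replicate 1 (adjusted p = 0.209). The second was −0.62 without wt 48 h replicate 1 (adjusted p = 0.0508), and the third passed without any 1 of 12 libraries (−0.44 to −0.43, adjusted p 0.023 to 0.0475).

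In *rps7*∆, *PRB1* had 23.4 and 22.3 CPM at 24 h, below wt, and 72.0 and 74.5 CPM at 48 h and 68.7 and 66.4 CPM at 72 h, above wt. The log2 fold change was −1.08 ± 0.19 at 24 h, 0.49 ± 0.18 at 48 h and 0.32 ± 0.19 at 72 h (edgeR adjusted p = 4.58e-05, 0.0203 and 0.135). Scaled by library size alone, the values were −0.84, 1.21 and 0.79 and all 3 passed (adjusted p = 5.94e-04, 3.11e-06 and 6.60e-04). The 48 h value after TMM missed the threshold without any 1 of its 4 own libraries, at 0.47 to 0.51 (adjusted p 0.0549 to 0.0808).

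In *rps25*∆, *PRB1* had 26.3 and 33.1 CPM at 24 h, 23.7 and 32.3 CPM at 48 h and 16.5 and 23.8 CPM at 72 h. The libraries lay below wt at 24 and 72 h and overlapped with wt at 48 h. *PRB1* fell by 0.79 on the log2 scale at 24 h (SE 0.18, edgeR adjusted p = 8.02e-04) and by 1.01 at 72 h (SE 0.21, edgeR adjusted p = 4.25e-04). At 48 h the value was −0.40 ± 0.20 (edgeR adjusted p = 0.108), and −0.65 without *rps25*∆ 48 h replicate 2 (adjusted p = 0.0443).

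*YPS1* mRNA had the lowest of all these log2 fold changes after TMM and, of the 3 genes, the smallest spread between replicates, with a biological coefficient of variation of 5.44% in the mRNA fit, against 7.65% for *PEP4* and 11.0% for *PRB1*. It passed in 7 of the 12 comparisons with wt, with 3 higher and 4 lower. The higher ones were *rpl38*∆ at 48 h and *rpl9a*∆ and *rps7*∆ at 24 h, and the lower ones were *rps7*∆ and *rps25*∆ at 48 and 72 h, of which *rps7*∆ at 48 h was higher with library size alone.

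*YPS1* in *rps7*∆ was highest early, with 266 and 254 CPM at 24 h, 199.98 and 217 CPM at 48 h and 112 and 108 CPM at 72 h. In wt, *YPS1* was at 149.9 and 143 CPM at 24 h, 171 and 177 CPM at 48 h and 216 and 211.3 CPM at 72 h. The *rps7*∆ libraries lay above those of wt at 24 and 48 h and below them at 72 h, when wt was highest. At 24 h *YPS1* rose by 0.58 ± 0.07 on the log2 scale (edgeR adjusted p = 1.01e-06). At 72 h it fell by 1.43 (SE 0.08, edgeR adjusted p = 2.11e-12), and by 0.95 with library size alone (adjusted p = 6.81e-09). At 48 h it was lower by the typical gene and higher by library size, −0.45 ± 0.07 after TMM (edgeR adjusted p = 1.96e-05) and 0.26 with library size alone (adjusted p = 0.00837).

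In *rps25*∆, *YPS1* declined slowly over the culture and had 167 and 174 CPM at 24 h, 156 and 148 CPM at 48 h and 139 and 132 CPM at 72 h. It did not pass at 24 h, at −0.10 ± 0.07 (edgeR adjusted p = 0.235), where library size alone gave 0.21 and a call (adjusted p = 0.0358). It was −0.41 ± 0.08 at 48 h (edgeR adjusted p = 1.55e-04), a call that was lost with library size alone (−0.20, adjusted p = 0.0621). At 72 h it fell by 0.76 (SE 0.08, edgeR adjusted p = 8.32e-08).

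In *rpl38*∆, *YPS1* had 132 and 124 CPM at 24 h, 271 and 240.0 CPM at 48 h and 224 and 235 CPM at 72 h. The 48 h libraries were the highest of the strain and passed against wt, at 0.39 ± 0.08 (edgeR adjusted p = 1.36e-04). The other times did not, at −0.09 ± 0.08 and 0.03 ± 0.08 (edgeR adjusted p = 0.357 and 0.758), although with library size alone the 24 h value was −0.23 and passed (adjusted p = 0.0355). In *rpl9a*∆, *YPS1* had 167 and 165 CPM at 24 h, 171 and 197 CPM at 48 h and 214 and 227 CPM at 72 h, and overlapped with wt at 48 and 72 h. The 24 h value was 0.48 ± 0.08 (edgeR adjusted p = 2.42e-05), and with library size alone it was 0.15 and did not pass (adjusted p = 0.167). At 48 and 72 h it was 0.01 ± 0.07 and 0.07 ± 0.07 (edgeR adjusted p = 0.943 and 0.415).

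**Figure D2:**
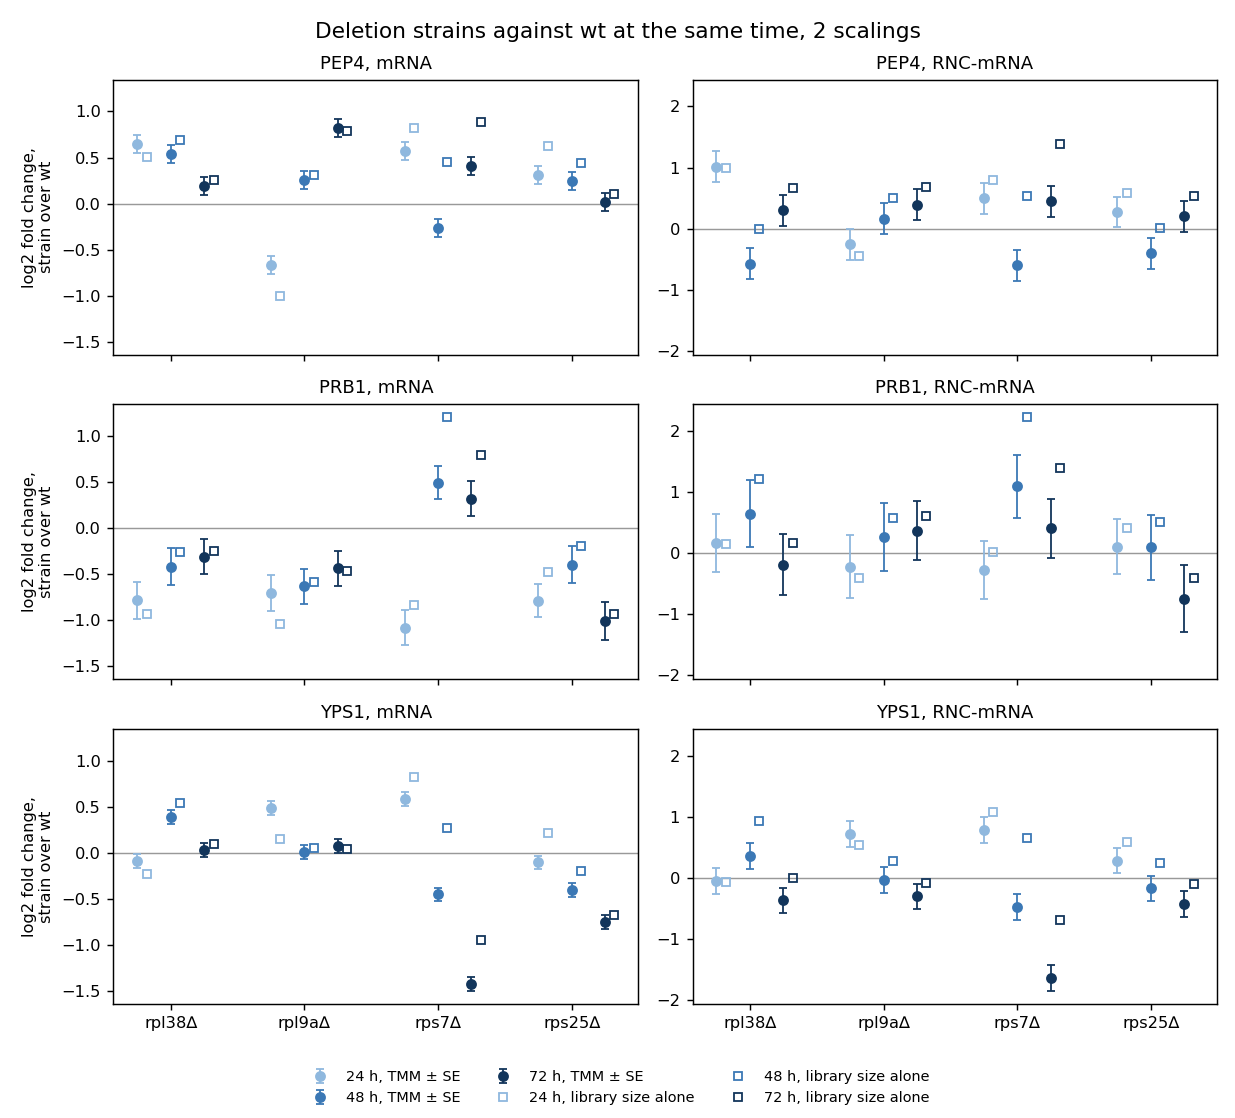
Log2 fold change of each deletion strain against wt at the same time for *PEP4*, *PRB1* and *YPS1*, mRNA on the left and RNC-mRNA on the right. Filled circles with SE bars are values after TMM, open squares are values with library size alone, and shades are 24, 48 and 72 h. In *rps7*∆ at 48 h the circles and squares of *PEP4* and *YPS1* lie on opposite sides of 0 in both assays, and *YPS1* in *rps7*∆ at 72 h is the lowest point of its panels on either scaling.

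Averaged over the 3 times, 11 of the 12 mRNA tests of the 3 genes passed. Of all genes tested, 71.7% passed for *rpl38*∆ and 59.6% for *rpl9a*∆, 77.9% for *rps7*∆ and 67.3% for *rps25*∆. *PEP4* was higher in every strain, by 0.46 ± 0.06 (*rpl38*∆), 0.14 ± 0.06 (*rpl9a*∆), 0.24 ± 0.06 (*rps7*∆) and 0.19 ± 0.06 (*rps25*∆) on the log2 scale (edgeR adjusted p = 3.14e-07, 0.041, 5.91e-04 and 0.00506). The *rpl9a*∆ average joins changes of opposite sign at 24 and 72 h. With library size alone it was 0.03 and did not pass (adjusted p = 0.695), and it was lost without any 1 of 14 libraries, 9 of them of *rpl9a*∆ or wt (0.08 to 0.15, adjusted p up to 0.147). *PRB1* was lower in *rpl38*∆ (−0.50 ± 0.11), *rpl9a*∆ (−0.59 ± 0.11) and *rps25*∆ (−0.73 ± 0.11), with edgeR adjusted p of 5.05e-04, 1.21e-04 and 9.24e-06. In *rps7*∆ it did not pass, at −0.09 ± 0.11 (edgeR adjusted p = 0.451), and was 0.39 with library size alone (adjusted p = 0.00209). This average too joins values of opposite sign, −1.08 at 24 h, 0.49 at 48 h and 0.32 at 72 h. *YPS1* was higher in *rpl38*∆ (0.11 ± 0.04) and *rpl9a*∆ (0.19 ± 0.04) and lower in *rps25*∆ (−0.42 ± 0.04) and, after TMM, in *rps7*∆ (−0.43 ± 0.04, but 0.05 with library size alone), with edgeR adjusted p of 0.0295, 8.54e-04, 3.70e-08 and 1.10e-08. With that scaling neither *rps7*∆ (adjusted p = 0.399) nor *rpl9a*∆ (0.08, adjusted p = 0.179) passed. The *YPS1* average of *rps7*∆ joins, after TMM, 0.58 at 24 h, −0.45 at 48 h and −1.43 at 72 h. The *YPS1* average of *rpl38*∆ was lost without any 1 of 6 of its own libraries or those of wt (0.08 to 0.10, adjusted p up to 0.126).

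In RNC-mRNA fewer comparisons passed, for the 3 genes and for all genes. Of the 36 single comparisons of the 3 genes 4 passed, against 24 in mRNA, and the replicates were further apart, with a coefficient of variation of 18.7% for *PEP4*, 29.0% for *PRB1* and 15.2% for *YPS1*. Of all 5210 genes tested, 25.2% at 24 h, 46.3% at 48 h and 45.9% at 72 h passed in *rpl38*∆. In *rpl9a*∆ 17.9%, 16.2% and 14.2% passed at these times, in *rps7*∆ 39.0%, 45.0% and 47.4%, and in *rps25*∆ 28.2%, 27.3% and 28.6%. A comparison that passed in mRNA and not in RNC-mRNA is not shown to differ between the assays, which was tested only for the average of the times.

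*PEP4* RNC-mRNA passed in 1 of the 12 comparisons, *rpl38*∆ at 24 h. In that strain it had 1381 and 1413 CPM at 24 h, 709 and 685 CPM at 48 h and 550.1 and 658 CPM at 72 h. In wt it had 669.5 and 706 CPM at 24 h, 717 and 679 CPM at 48 h and 422 and 338 CPM at 72 h. At 24 h the strain stood clear of wt, at 1.02 ± 0.25 on the log2 scale (edgeR adjusted p = 0.00526), or 0.97 without wt 24 h replicate 1 (adjusted p = 0.0507). At 48 h the CPM of the 2 strains overlapped, and the log2 fold change was −0.58 ± 0.25 after TMM (edgeR adjusted p = 0.0667) and −0.61 with the DESeq2 Wald test, which passed (adjusted p = 0.0365). With library size alone it was −0.0044 and did not pass (adjusted p = 0.99).

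In *rps7*∆, *PEP4* RNC-mRNA had 1278 and 1101 CPM at 24 h, 943 and 1069 CPM at 48 h and 1079 and 915 CPM at 72 h, above wt at each time. None of the 3 passed after TMM, at 0.49 ± 0.25, −0.60 ± 0.25 and 0.45 ± 0.25 (edgeR adjusted p = 0.123, 0.0572 and 0.147). With library size alone the values were 0.79, 0.53 and 1.39, and those at 24 and 72 h passed (adjusted p = 0.028, 0.0837 and 1.80e-04). At 48 h *PEP4* passed as lower with DESeq2 size factors (−0.65, edgeR adjusted p = 0.0447) and with the DESeq2 Wald test (−0.65, adjusted p = 0.0245). In *rps25*∆ it had 1059 and 997 CPM at 24 h, 715 and 694 CPM at 48 h and 520.2 and 590.2 CPM at 72 h, and no time passed on either scaling.

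In *rpl9a*∆, *PEP4* RNC-mRNA had 486 and 554 CPM at 24 h, 819 and 1175 CPM at 48 h and 865 and 355 CPM at 72 h. The last value is that of the library that stood apart. At 72 h the log2 fold change was 0.39 ± 0.25 (edgeR adjusted p = 0.311), and without that library it was 0.82 ± 0.22 (edgeR adjusted p = 0.00494). Without that library the SE of the other *PEP4* comparisons was smaller too, so that more of them passed. Their values stayed near those with it, as in *rps7*∆ at 24, 48 and 72 h (0.49, −0.60 and 0.45) and *rpl38*∆ at 48 h (−0.58). The share of all genes that passed without that library was not counted.

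*PRB1* RNC-mRNA passed in 0 of the 12 comparisons with edgeR after TMM, where 1 had an unadjusted p under 0.05, in 0 with DESeq2 and in 2 with library size alone. The smallest adjusted p was that of *rps7*∆ at 48 h. It had 35.4 and 25.1 CPM (178 and 70 reads) there, against 2.42 and 11.1 CPM (7 and 25 reads) in wt, at 1.10 ± 0.51 (edgeR adjusted p = 0.0883). The fold depended on wt 48 h replicate 2, without which it was 2.51 (adjusted p = 0.00744). It was 2.23 with library size alone (adjusted p = 6.05e-04). In the other *rps7*∆ libraries it had 4.92 and 9.97 CPM at 24 h and 12.2 and 28.4 CPM at 72 h, where wt had 5.40 and 9.18 CPM at 24 h and 6.55 and 9.35 CPM at 72 h. The other deletion strains had 4.75 to 17.2 CPM, and *rpl38*∆ at 48 h too passed without wt 48 h replicate 2 (2.06, adjusted p = 0.0283, against 0.65 with it).

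*YPS1* RNC-mRNA passed in 3 of the 12 comparisons, and all 3 had passed in mRNA in the same direction. In *rps7*∆ it had 185 and 165 CPM at 24 h, 147 and 174 CPM at 48 h and 90.9 and 75.8 CPM at 72 h. In wt it had 84.6 and 80.8 CPM at 24 h, 115 and 90.4 CPM at 48 h and 139.9 and 129.8 CPM at 72 h. The strain was above wt at 24 h (0.78 ± 0.21, edgeR adjusted p = 0.0052) and below it at 72 h (−1.65 ± 0.21, edgeR adjusted p = 2.68e-06), as in mRNA. At 48 h it was −0.48 ± 0.21 after TMM (edgeR adjusted p = 0.0675) and 0.65 with library size alone (adjusted p = 0.00359). It passed as lower there with DESeq2 size factors (−0.535, edgeR adjusted p = 0.0419) and with the DESeq2 Wald test (−0.54, adjusted p = 0.0359).

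In *rpl9a*∆, *YPS1* RNC-mRNA had 118 and 127 CPM at 24 h, 124 and 129 CPM at 48 h and 112 and 144 CPM at 72 h. The 24 h value was 0.72 ± 0.21 (edgeR adjusted p = 0.02), and was lost without any 1 of its 4 libraries, at 0.69 to 0.74 (adjusted p 0.0848 to 0.119). At 72 h it was −0.30 ± 0.21 (edgeR adjusted p = 0.346), and −0.63 without the library that stood apart (adjusted p = 0.0284). *YPS1* had 72.2 to 202 CPM in *rpl38*∆ and 116 to 138 CPM in *rps25*∆, where no time passed after TMM. Scaled by library size alone, *rpl38*∆ passed at 48 h (0.92, adjusted p = 3.53e-04) and *rps25*∆ at 24 h (0.59, adjusted p = 0.0166).

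Averaged over the times, only *YPS1* in *rps7*∆ passed in RNC-mRNA of the 12 tests, at −0.45 ± 0.12 (edgeR adjusted p = 0.003), and with library size alone it was 0.34 (adjusted p = 0.00551). After TMM this average joins 0.78 at 24 h, −0.48 at 48 h and −1.65 at 72 h. Of all genes tested, 55.3% passed for *rpl38*∆ and 26.3% for *rpl9a*∆, 61.6% for *rps7*∆ and 44.2% for *rps25*∆.

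The ratio of *PEP4* to *YPS1* within a library does not depend on the scaling. The RPKM of *PEP4* was 13.4 and 13.8 times that of *YPS1* in mRNA of *rps7*∆ at 72 h, against 3.71 and 3.90 times in wt. The other deletion strains lay above wt in mRNA at 72 h too. They had 4.13 and 4.38 times in *rpl38*∆, 6.69 and 6.11 times in *rpl9a*∆ and 6.22 and 6.82 times in *rps25*∆. In RNC-mRNA it was 17.3 and 17.6 times in *rps7*∆ at 72 h, against 4.40 and 3.80 times in wt. There *rpl38*∆ (5.19 and 8.41 times) and *rps25*∆ (6.52 and 6.25 times) were above wt as well, and *rpl9a*∆ (11.3 and 3.59 times) overlapped with it. At 24 h, *rpl38*∆ stood out, with 12.8 and 13.0 times in mRNA and 27.9 and 23.4 times in RNC-mRNA, against 7.14 and 8.41 times and 11.6 and 12.7 times in wt. *rpl9a*∆ had 3.44 and 3.56 times in mRNA and 6.01 and 6.36 times in RNC-mRNA at 24 h, all below wt. *rps7*∆ at 24 h overlapped with wt in mRNA (7.10 and 8.38 times) and lay below it in RNC-mRNA (10.1 and 9.75 times). These ratios are given as a description and were not tested.

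**Figure D3:**
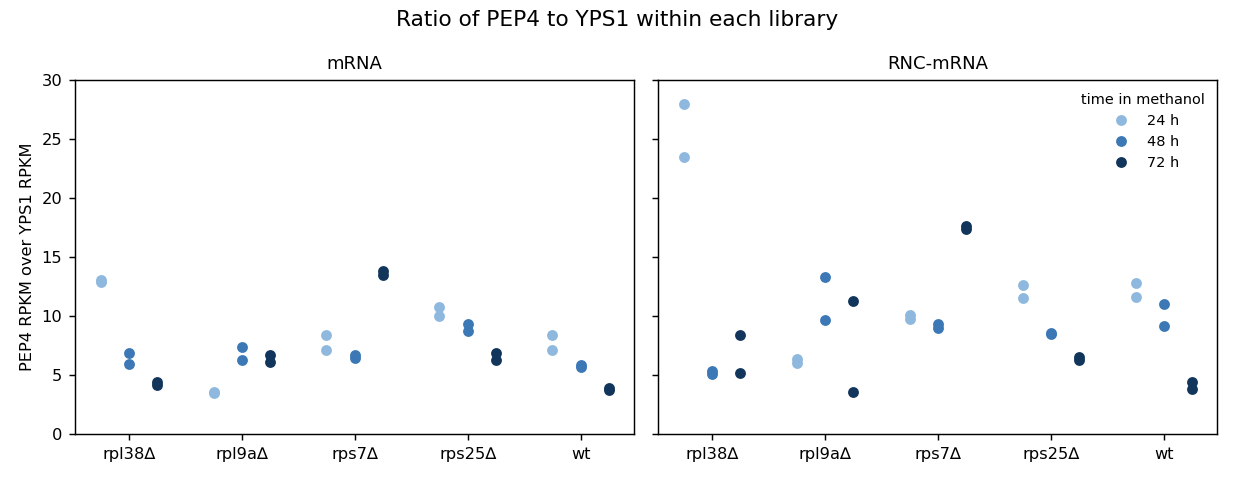
RPKM of *PEP4* divided by that of *YPS1* in each library, mRNA on the left and RNC-mRNA on the right, by strain and time. Each point is a library. The ratio is above 1 in all 60 libraries. The points of *rps7*∆ at 72 h (13.4 to 17.6) and of *rpl38*∆ at 24 h (12.8 to 27.9) lie above those of wt at the same time. In mRNA, those of the other deletion strains at 72 h and of *rps25*∆ at 24 h do as well. At 48 h those of all deletion strains lie above wt in mRNA, and those of *rpl38*∆ and *rps25*∆ below it in RNC-mRNA.

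Over the culture, *PEP4* mRNA fell in 4 strains and rose in 1. At 72 h against 24 h it fell by 1.13 on the log2 scale in *rpl38*∆, 0.84 in *rps7*∆, 0.97 in *rps25*∆ and 0.67 in wt (edgeR adjusted p = 2.93e-09, 2.69e-07, 6.68e-08 and 4.92e-05), and it rose by 0.81 in *rpl9a*∆ (edgeR adjusted p = 2.24e-07). All 5 held with library size alone. *YPS1* mRNA rose by 0.47 in *rpl38*∆ and 0.35 in wt and fell by 1.65 in *rps7*∆ and 0.30 in *rps25*∆ (edgeR adjusted p = 1.58e-05, 0.00153, 1.55e-13 and 0.00326). The last was −0.24 without *rps25*∆ 72 h replicate 2 (adjusted p = 0.0636), and in *rpl9a*∆ the value was −0.06 (edgeR adjusted p = 0.477), and 0.43 with library size alone (adjusted p = 1.17e-04). *PRB1* mRNA passed only in *rps7*∆, where it rose by 1.14 (edgeR adjusted p = 2.54e-05). With library size alone it passed in 4 strains, higher in 3 and lower in *rps25*∆ (−0.53, adjusted p = 0.0409). Of all genes tested in mRNA, 70.3% passed for *rpl38*∆ and 76.4% for *rpl9a*∆, 60.1% for *rps7*∆, 44.0% for *rps25*∆ and 29.8% for wt.

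In RNC-mRNA, *PEP4* fell by 1.66 in *rpl38*∆, 0.995 in *rps7*∆, 1.02 in *rps25*∆ and 0.95 in wt between 24 and 72 h (edgeR adjusted p = 2.65e-05, 0.00281, 0.00662 and 0.0171). The *rps7*∆ value was −0.25 with library size alone (adjusted p = 0.423). That of *rps25*∆ was lost without *rps25*∆ 24 h replicate 1 or 72 h replicate 1 (−0.91 and −0.89, adjusted p = 0.0645 and 0.0785), and that of wt without any 1 of its 4 libraries, at −1.04 to −0.86 (adjusted p 0.0578 to 0.133). In *rpl9a*∆ it was −0.30 ± 0.25 (edgeR adjusted p = 0.356), or 0.13 ± 0.22 without the library that stood apart (adjusted p = 0.642) and −0.92 without its replicate (adjusted p = 0.00348). *YPS1* passed only in *rps7*∆, where it fell by 1.81 (SE 0.21, edgeR adjusted p = 8.53e-07). In wt it was at 0.62 ± 0.21 (edgeR adjusted p = 0.0547). That value passed with library size alone (0.71, adjusted p = 0.0145) and with the DESeq2 Wald test (0.63, adjusted p = 0.029). It also passed with DESeq2 size factors (0.63, edgeR adjusted p = 0.0478) and with more than 10 reads in every library (0.64, edgeR adjusted p = 0.0386). In *rpl9a*∆ *YPS1* was at −0.40 (edgeR adjusted p = 0.127), or −0.73 ± 0.22 without the library that stood apart (adjusted p = 0.00791). Without that library *YPS1* in wt passed too (0.62, adjusted p = 0.0154). *PRB1* passed in 0 of the 5 strains with edgeR, with 0 under 0.05 before adjustment, 0 with DESeq2 and 1 with library size alone. Of all genes tested in RNC-mRNA, 55.4% passed for *rpl38*∆ and 40.2% for *rpl9a*∆, 47.8% for *rps7*∆, 18.3% for *rps25*∆ and 12.8% for wt.

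The change from 24 to 72 h was also tested against that of wt. In mRNA, 6 of the 12 tests passed. *PEP4* differed in *rpl9a*∆ by 1.48 ± 0.14 (edgeR adjusted p = 1.44e-08), *PRB1* in *rps7*∆ by 1.40 ± 0.27 (edgeR adjusted p = 1.78e-04), and *YPS1* in *rps7*∆ by −2.01 ± 0.11 (edgeR adjusted p = 2.91e-12) and in *rps25*∆ by −0.65 ± 0.11 (edgeR adjusted p = 5.42e-05). These 4 passed in the same direction under every alternative run, each library left out in turn included. *PEP4* in *rpl38*∆ (−0.46 ± 0.14, edgeR adjusted p = 0.00817) was lost with library size alone (−0.25, adjusted p = 0.197) and without *rpl38*∆ 72 h replicate 1 (−0.37, adjusted p = 0.0609), and *YPS1* in *rpl9a*∆ (−0.41 ± 0.11, edgeR adjusted p = 0.00193) with library size alone (−0.11, adjusted p = 0.451). Of all genes tested, 54.7% passed for *rpl38*∆ and 65.1% for *rpl9a*∆, 49.0% for *rps7*∆ and 39.6% for *rps25*∆.

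In RNC-mRNA, 2 of the 12 such tests passed, both of *YPS1*. In *rps7*∆ the difference was −2.43 ± 0.30 (edgeR adjusted p = 2.35e-06). In *rpl9a*∆ it was −1.02 ± 0.29 (edgeR adjusted p = 0.0202), −0.61 with library size alone (adjusted p = 0.0782), and lost without any 1 of 6 of its own 8 libraries, at −1.05 to −0.75 (adjusted p 0.0516 to 0.0687). Without the library that stood apart it was −1.35 ± 0.29 (adjusted p = 7.68e-04), and *YPS1* in *rps25*∆ passed at −0.71 (adjusted p = 0.0412). *PEP4* in *rpl9a*∆ was at 0.65 ± 0.35 (edgeR adjusted p = 0.215), or 1.08 ± 0.28 without the library that stood apart (edgeR adjusted p = 0.00477). Of all genes tested, 34.5% passed for *rpl38*∆ and 17.7% for *rpl9a*∆, 34.0% for *rps7*∆ and 16.0% for *rps25*∆.

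*PRB1* was the gene of the 3 with the least RNC-mRNA for its mRNA. Group means in CPM gave it 0.178 to 0.585 times as much in RNC-mRNA as in mRNA, *YPS1* 0.564 to 0.94 times and *PEP4* 0.624 to 1.31 times. In the joint fit of both assays over the times, *PRB1* in RNC-mRNA against mRNA was at −0.97 ± 0.21 in *rpl38*∆, −0.95 ± 0.21 in *rpl9a*∆, −1.16 ± 0.19 in *rps7*∆, −1.14 ± 0.21 in *rps25*∆ and −1.69 ± 0.21 in wt (edgeR adjusted p = 8.67e-05, 1.20e-04, 8.83e-07, 6.83e-06 and 6.01e-09). These 5 passed in the same direction under every alternative run. Most genes passed such a test, 73.1% in *rpl38*∆, 77.4% in *rpl9a*∆, 77.5% in *rps7*∆, 76.2% in *rps25*∆ and 78.2% in wt.

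*PEP4* was higher in RNC-mRNA than in mRNA, relative to the typical gene, in *rpl9a*∆ (0.43 ± 0.11), *rps7*∆ (0.33 ± 0.11), *rps25*∆ (0.25 ± 0.11) and wt (0.44 ± 0.11), but lower with library size alone (−0.02, −0.05, −0.25 and −0.23), where none passed. The edgeR adjusted p after TMM were 7.00e-04, 0.00815, 0.0397 and 6.14e-04, and *rpl38*∆ did not pass (0.23 ± 0.11, edgeR adjusted p = 0.0585), except with a replicate block for the divided sample, chosen after seeing the data (0.23 ± 0.10, adjusted p = 0.0393). Without the library that stood apart, *PEP4* in *rpl9a*∆ was 0.58 ± 0.09 (adjusted p = 1.62e-07), and *YPS1* in *rpl9a*∆, at −0.11 with it (edgeR adjusted p = 0.231), was −0.21 ± 0.08 and passed (adjusted p = 0.0196). *YPS1* passed in *rpl38*∆ (−0.20 ± 0.09, edgeR adjusted p = 0.0329) and in *rps25*∆, where it was 0.22 ± 0.09 (edgeR adjusted p = 0.0198) but −0.28 with library size alone (adjusted p = 0.0014). Single libraries ended most of these calls. *PEP4* in *rps7*∆ was 0.25 without *rps7*∆ RNC-mRNA 72 h replicate 1 (adjusted p = 0.0519), *YPS1* in *rps25*∆ 0.16 without its RNC-mRNA 72 h replicate 2 (adjusted p = 0.101), *PEP4* in *rps25*∆ 0.21 to 0.27 without any 1 of 9 libraries (adjusted p 0.0503 to 0.117) and *YPS1* in *rpl38*∆ −0.20 to −0.13 without any 1 of 6 (adjusted p 0.058 to 0.169).

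**Figure D4:**
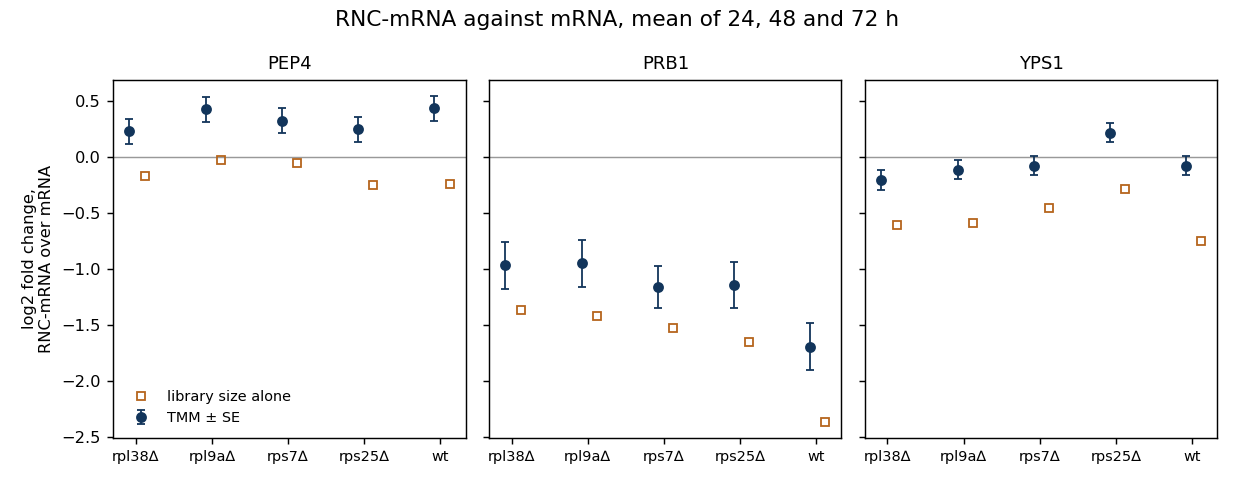
Log2 fold change of RNC-mRNA against mRNA, mean of 24, 48 and 72 h, for *PEP4*, *PRB1* and *YPS1* in each strain. Circles with SE bars are values after TMM and open squares are values with library size alone. *PRB1* lies below 0 in all 5 strains on both scalings, lowest in wt (−1.69 after TMM), while *PEP4* lies above 0 after TMM and below 0 with library size alone.

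None of the 12 strain tests of RNC-mRNA relative to mRNA against that in wt passed after TMM with edgeR. Before adjustment 2 were under 0.05 for *PRB1* and 1 for *YPS1*, and 0 passed with DESeq2 and 5 with library size alone. Of all 5241 genes tested, 11.3% passed for *rpl38*∆ and 7.67% for *rpl9a*∆, 17.2% for *rps7*∆ and 15.8% for *rps25*∆. For *PRB1* the difference from wt was positive in all 4 strains, with 0.73 ± 0.30 for *rpl38*∆ and 0.75 ± 0.30 for *rpl9a*∆, 0.53 ± 0.29 for *rps7*∆ and 0.55 ± 0.30 for *rps25*∆ (edgeR adjusted p = 0.112, 0.129, 0.207 and 0.224). The 4 values share the wt libraries, among which the RNC-mRNA levels at 48 h were 7 and 25 reads. Without wt RNC-mRNA 48 h replicate 2 all 4 passed, at 0.99 to 1.21 (adjusted p 0.013 to 0.0282). For *PEP4* they were −0.20 ± 0.16 for *rpl38*∆ and −0.01 ± 0.16 for *rpl9a*∆, −0.11 ± 0.16 for *rps7*∆ and −0.19 ± 0.16 for *rps25*∆, and for *YPS1* −0.13 ± 0.12, −0.04 ± 0.12, 0.00 ± 0.13 and 0.30 ± 0.12 in the same order.

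Over the 15 group means of log2 TMM-scaled CPM in mRNA, Pearson's r was −0.32 between *PEP4* and *PRB1*, 0.17 between *PEP4* and *YPS1* and −0.35 between *PRB1* and *YPS1*. In RNC-mRNA r was −0.12, 0.06 and −0.36 for these pairs. With CPM per host gene reads r was 0.11, 0.11 and −0.11 in mRNA and 0.32, −0.16 and 0.24 in RNC-mRNA, so that the sign turned for 1 pair in mRNA and for all 3 in RNC-mRNA. With that scaling the median r of all genes was 0.25 with *PEP4*, 0.40 with *PRB1* and 0.04 with *YPS1* in mRNA. In RNC-mRNA it was 0.17, 0.60 and 0.19. After TMM these medians lay between −0.06 and 0.03. The genes most like each of the 3 genes by r after TMM were others. In mRNA they were Pipas_chr4_0320 (r = 0.83) and Pipas_chr2-2_0496 (0.79) for *PEP4*, Pipas_chr3_0171 (0.86) and Pipas_chr2-1_0115 (0.83) for *PRB1*, and Pipas_chr4_0508 (0.90) and Pipas_chr4_0516 (0.85) for *YPS1*. In RNC-mRNA they were Pipas_chr3_1126 (0.88) and Pipas_chr1-4_0014 (0.87) for *PEP4*, Pipas_chr1-3_0293 (0.80) and Pipas_chr1-3_0052 (0.79) for *PRB1*, and Pipas_chr1-1_0009 (0.83) and Pipas_chr1_9150 (0.81) for *YPS1*. No gene was among the most alike in both assays. The groups share libraries of one depth and scaling, and with CPM per host gene reads the pair of *PEP4* and that of *PRB1* in RNC-mRNA were other genes, as was the second of *YPS1* in mRNA (Pipas_chr3_0095, 0.81).

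Other protease genes could not be listed, because 0 of the 5319 IDs matched the gene table at hand. Beside the 3 genes, the 55 chaperone genes and the 86 ribosomal protein genes that the study lists were counted in the same fits, averaged over the times. Ribosomal proteins build the ribosome, and chaperones help proteins to fold. The study gives the chaperone genes with values from these samples, so their direction is not taken as independent evidence.

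After TMM, 40 chaperone genes were lower and 9 higher in mRNA of *rpl38*∆ and 29 were lower and 8 higher in *rpl9a*∆, with median log2 fold changes of −0.60 and −0.20. In *rps7*∆ 39 were lower and 5 higher with a median of −0.40, and in *rps25*∆ 31 were lower and 11 higher with a median of −0.24. With library size alone the last medians were 0.08 and −0.04, and the split in *rps7*∆ turned to 19 lower and 25 higher and that in *rps25*∆ to 17 lower and 18 higher. Most ribosomal protein genes were lower on both scalings in 3 strains. After TMM 76 of them were lower in *rpl38*∆ (median −0.92), 76 in *rpl9a*∆ (−0.78) and 80 in *rps7*∆ (−1.37), and 0 were higher. In *rps25*∆, 38 were higher and 19 lower (median 0.15). The median of all genes lay between 0.00 and 0.05 in these fits. Of all 5229 genes tested, 1897 passed lower and 1851 higher in *rpl38*∆ after TMM, and 1509 lower and 1610 higher in *rpl9a*∆. In *rps7*∆ 1929 passed lower and 2142 higher, and in *rps25*∆ 1708 lower and 1812 higher. In *rpl38*∆, mRNA of *PEP4* was thus higher on average (0.46) while most genes of both lists were lower, on either scaling.

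In RNC-mRNA of *rpl38*∆ and *rps7*∆ the lists were again mostly lower, with 85 and 79 ribosomal protein genes lower and 0 higher, and 40 chaperone genes lower in each after TMM, with 2 higher in *rpl38*∆ and 4 in *rps7*∆. In *rpl9a*∆ 4 ribosomal protein genes were lower and 0 higher, and 18 chaperone genes were lower and 2 higher. In *rps25*∆ 7 ribosomal protein genes were lower and 8 higher, and 23 chaperone genes were lower and 3 higher. The median of all genes lay between 0.01 and 0.07 in these fits. Of all 5210 genes tested, 1461 passed lower and 1418 higher in *rpl38*∆ after TMM, and 616 lower and 756 higher in *rpl9a*∆. In *rps7*∆ 1545 passed lower and 1666 higher, and in *rps25*∆ 1063 lower and 1239 higher. With library size alone 11 chaperone genes were lower and 24 higher in *rps7*∆, and 8 lower and 14 higher in *rps25*∆, where 3 ribosomal protein genes were lower and 21 higher.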

How the data were processed

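Total mRNA and RNC-mRNA of 5 strains at 24, 48 and 72 h were sequenced after polyA selection on an Illumina HiSeq instrument. The submitters' processing notes name bcl2fastq 2.17, and the rest of the read processing (aligner, counter, genome build) is not given in the sources used here. For each library the authors deposited read counts per gene and RPKM, and a separate table of Phy reads. Counts are as the authors made them, with no normalization, and the deposited RPKM divide them by listed length and host gene reads (recomputed values differed by at most 0.000117%).

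Phy reads joined the deposited counts as a gene of their own, so that library sizes hold them. A gene entered a fit if 2 or more of its libraries had over 10 reads (5229 genes in mRNA, 5210 in RNC-mRNA, 5241 in the joint fit). The quasi-likelihood test of edgeR 4.0.16 in R 4.3.3 was fitted with 1 mean per strain and time, and in the joint fit also per assay. p-values were adjusted by Benjamini-Hochberg over all genes tested. The fits were tested on simulated data. Alternatives were library size alone, DESeq2 size factors, the DESeq2 1.42.0 Wald test, no filter, more than 10 reads in every library, a replicate block (for RNC-mRNA against mRNA also with 1 term per divided sample, taking same-numbered libraries as its aliquots, chosen after seeing the data), the 4 libraries of a comparison alone, and each library left out in turn, where a lone library is assumed to vary like the other groups. Tables and plots were made with Python 3.11.15, numpy 2.4.6, pandas 2.3.3 and matplotlib 3.10.9.

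Named were the 3 genes, the 2 genes most like each of them per assay, and the deleted genes as a check of the labels. The members and lists were chosen with earlier results of these data known. The study calls the replicates biological, and p-values measure the spread between them. The number of deposited per-sample columns not used was 0.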

Additional observations from a re-analysis of the deposited data

Results flagged for a closer look

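For 8 results the change from 24 to 72 h in a deletion strain differed from that in wt by a test of the difference itself (edgeR, adjusted over all genes). For *PEP4* mRNA the strain's log2 change minus that of wt was −0.46 in *rpl38*∆ and 1.48 in *rpl9a*∆. For *PRB1* mRNA it was 1.40 in *rps7*∆. For *YPS1* mRNA it was −2.01 in *rps7*∆, −0.65 in *rps25*∆ and −0.41 in *rpl9a*∆, and for *YPS1* RNC-mRNA −1.02 in *rpl9a*∆ and −2.43 in *rps7*∆. The 5 results of *PEP4* in *rpl9a*∆, *PRB1* in *rps7*∆ and *YPS1* in *rps7*∆ (both assays) and *rps25*∆ (mRNA) passed in the same direction under every alternative run. Within groups of 2 libraries no search for an outlying sample was made, and the library that stood apart was found by its correlation with mRNA.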

How the results depend on the processing

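Of the 207 results, 182 kept their direction and their side of the threshold under all alternatives other than library size alone and leaving out a library. A value counts as turned only where it passed under at least 1 of the 2 settings. With library size alone 17 turned, 34 passed only then and 12 no longer passed. The values that turned in mRNA were *PEP4* 0.46 and *YPS1* 0.26 in *rps7*∆ at 48 h, *YPS1* 0.21 in *rps25*∆ at 24 h, the averages of *PRB1* 0.39 and *YPS1* 0.0459 in *rps7*∆, *PEP4* 0.0037 in *rpl38*∆ at 48 h against 24 h, and *YPS1* in *rpl9a*∆ at 48 h (0.16) and 72 h (0.43) against 24 h. In RNC-mRNA they were *YPS1* 0.65 in *rps7*∆ at 48 h, its averages in *rpl38*∆ (0.28) and *rps7*∆ (0.34), and 0.0606 in *rpl9a*∆ at 48 h against 24 h. In the comparison of RNC-mRNA with mRNA they were *PEP4* in *rpl9a*∆ (−0.0229), *rps7*∆ (−0.0501), *rps25*∆ (−0.25) and wt (−0.23) and *YPS1* in *rps25*∆ (−0.28). The mRNA averages in *rpl9a*∆ no longer passed for *PEP4* (0.0320) and *YPS1* (0.08). Averages that passed only then were, in RNC-mRNA, *PEP4* in *rpl38*∆ (0.55), *rps7*∆ (0.90) and *rps25*∆ (0.38) and *PRB1* in *rps7*∆ (1.21), and, for RNC-mRNA relative to mRNA minus wt, *PRB1* in *rpl38*∆ (0.998), *rpl9a*∆ (0.95) and *rps7*∆ (0.84) and *YPS1* in *rps7*∆ (0.30) and *rps25*∆ (0.47). By construction, library size alone moves every gene of a comparison by about the same amount, and no other cause was tested. With DESeq2 size factors the mRNA averages of *YPS1* in *rpl38*∆ (0.10) and *PEP4* in *rpl9a*∆ (0.13) did not pass.

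Counts of passed RNC-mRNA comparisons with wt moved for *PEP4* (1) to 3 with library size alone, 2 with DESeq2 size factors, 3 with the DESeq2 test and 6 in fits of 4 libraries, for *PRB1* (0) to 2 with library size alone and 1 in fits of 4, and for *YPS1* (3) to 6 with each of these 2. For 72 h against 24 h, *PRB1* moved in RNC-mRNA (0) to 1 and in mRNA (1) to 4 with library size alone and to 2 with the DESeq2 test, and *YPS1* in RNC-mRNA (1) to 3 with library size alone, 2 with DESeq2 size factors, 2 with more than 10 reads in every library and 3 with the DESeq2 test. With the replicate block, *PRB1* mRNA passed at 72 h against 24 h in 2 strains, and 204 of the 207 results kept their call. The replicate numbers do not pair the samples within an assay, where deviations of same-numbered libraries correlated at −0.20 to 0.19 in mRNA and −0.73 to 0.33 in RNC-mRNA. Between the assays each sample was divided, and same-numbered mRNA and RNC-mRNA libraries of a strain and time correlated at −0.20 to 0.85, over 0.1 in 4 of 15 groups. A replicate block with 1 term for each of the 30 divided samples, chosen after seeing the data, kept the call of 26 of the 27 results of RNC-mRNA against mRNA, and *PEP4* in *rpl38*∆ then passed (0.23).

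Leaving out 1 library at a time changed 60 of the 207 results. The averages ranged over 0.0777 to 0.18 for *PEP4* in *rpl9a*∆ and 0.0789 to 0.14 for *YPS1* in *rpl38*∆ in mRNA, and over 0.15 to 0.88 for *PRB1* in *rps7*∆ and 0.21 to 0.28 for *PEP4* in *rpl38*∆ in RNC-mRNA. For RNC-mRNA relative to mRNA minus wt, *PRB1* ranged in *rpl38*∆ over 0.46 to 1.19, in *rpl9a*∆ over 0.48 to 1.21, in *rps7*∆ over 0.27 to 0.99 and in *rps25*∆ over 0.28 to 1.01, and *YPS1* over 0.24 to 0.36 in *rps25*∆. Counts ranged in RNC-mRNA over 0 to 6 for *PEP4*, 0 to 2 for *PRB1* and 2 to 5 for *YPS1*, and for 72 h against 24 h over 1 to 2 for *PRB1* mRNA and 1 to 3 for *YPS1* RNC-mRNA. *PRB1* rested on 7 to 216 reads per RNC-mRNA library. Without the library that stood apart more *PEP4* and *YPS1* comparisons passed in RNC-mRNA, and the share of all genes that then passed was not counted. With more than 10 reads in every library *PRB1* in RNC-mRNA was not tested.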
